A study of Homo sapiens with 8 samples.

Results

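The genes described here encode 9 enzymes that make, salvage or break down the deoxynucleotides used for DNA synthesis: RRM1, RRM2, DUT, TYMS, DTYMK, TK1, DCK, CAD and SAMHD1. They were chosen by name, with earlier results of these data known. All 9 had a row among the 35238 gene symbols of the MP38 count table and passed the filter on low counts together with 15085 genes in all. MP38 is a BAP1-mutant uveal melanoma (UM) line grown from a patient-derived xenograft. Bulk RNA was sequenced from 4 groups of 2 wells after 24 h: a 0.1% DMSO control, 40 nM romidepsin, 40 nM quisinostat and 1200 nM mivebresib. Romidepsin and quisinostat are histone deacetylase (HDAC) inhibitors, and mivebresib is a bromodomain and extra-terminal (BET) protein inhibitor. All groups shared the one line, its BAP1 mutation and the DMSO vehicle, and replicates were wells of that line, so p-values measure the spread between wells only.

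Ribonucleotide reductase turns ribonucleotides into deoxynucleotides, with RRM1 as its large catalytic subunit and RRM2 as the small subunit of dividing cells. RRM2B is a second small subunit, known to serve quiescent and DNA-damaged cells. Thymidylate is made from dUMP by TYMS, recovered from thymidine by TK1 and phosphorylated further by DTYMK, while DUT supplies dUMP by hydrolysing dUTP. DCK salvages deoxycytidine, CAD carries out the opening steps of pyrimidine synthesis, and SAMHD1 hydrolyses deoxynucleoside triphosphates. Several of these genes are known to be transcribed mainly around S phase, under E2F factors, and CCAAT boxes bound by NF-Y are common in promoters of cell cycle genes.

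The start regions of the genes were read first, as the places where such factors would be looked for. RefSeq (GRCh38.p14) gave 14 windows for the 9 genes, each from 250 bases before to 50 bases after a transcript start. Below, capitals mark the motif, positions count from the transcript's first base as 0, and every stretch at least partly touches an exon of some GENCODE 29 transcript of its gene. The motifs searched, on both strands, were CCAAT, the E2F core (TTGGCGC or TTCCCGC or TTGCCGC or TTCGCGC) and the CHR element (TTTGAA or TTCGAA). RRM2 is shown because its second start has CCAAT in a repeat, TK1 for CCAAT (read as ATTGG on this strand) beside an E2F core, TYMS and DUT for longer E2F words, and SAMHD1 as the gene that rose.
RRM2, start 2, chr2:10122606-10122630, plus strand: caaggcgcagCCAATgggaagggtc
RRM2, start 2, chr2:10122636-10122660, plus strand: catggcacagCCAATgggaagggcc
RRM2, start 2, chr2:10122663-10122687, plus strand: ggcaccaaagCCAATgggaagggcc
TYMS, chr18:657603-657632, plus strand: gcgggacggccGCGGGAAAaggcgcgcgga
TK1, start 1, chr17:78187115-78187139, minus strand: ccgggcgctgATTGGccccatggcg
TK1, start 1, chr17:78187084-78187108, minus strand: ccggctcgtgATTGGccagcacgcc
TK1, start 1, chr17:78187049-78187073, minus strand: gcggtcggcGCGGGAAccaggggct
DUT, start 4, chr15:48332152-48332181, plus strand: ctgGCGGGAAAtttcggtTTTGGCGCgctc
SAMHD1, chr20:36951735-36951764, minus strand: caggaggCCAATaggctgCCAATactcctt

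The RRM2 boxes began at -123, -93 and -66, and 3.26% of the 35116 windows of all genes held CCAAT 3 or more times. At least 1 CCAAT lay in a window of 6 of the 9 genes (RRM1, RRM2, DTYMK, TK1, CAD and SAMHD1), against 39.7% of 27305 genes. The E2F core lay in a window of 6 of 9 (RRM1, RRM2, DUT, TYMS, TK1 and DCK), against 15.3% of genes. An extra T before the core gives the longer E2F words, which overlap the core by construction, and these were in DUT, TYMS and DCK against 3.99% of genes. CHR words were in RRM1, DUT and DTYMK, against 19.5% of genes. Genes with several starts had more windows to match in. SAMHD1, DTYMK and CAD had CCAAT and no E2F core, DUT, TYMS and DCK had the core and no CCAAT, and RRM1, RRM2 and TK1 had both. These are letter matches only, and no binding was measured.

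**Figure D1:**
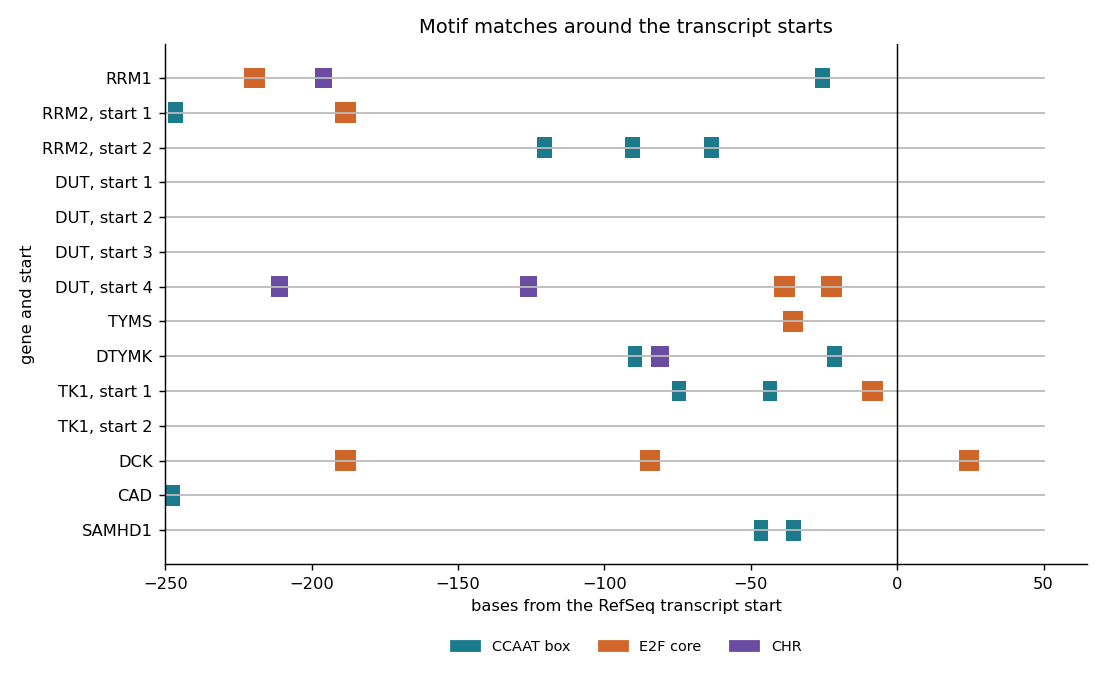
Matches to CCAAT, the E2F core and CHR in each RefSeq window; the x axis is the distance in bases from the transcript start, each line is 1 window and each block 1 match on either strand. RRM2 start 2 has 3 CCAAT blocks, SAMHD1 has 2, and DUT start 4 and TYMS have E2F core blocks within 50 bases of the start.

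The libraries were close in depth, from 28483235 to 29359024 total counts with a median of 28993876. The fewest counts behind a value given here for the 9 genes was 275, for TK1 in a quisinostat library. Levels are given in CPM (counts scaled to library size) after TMM scaling, and a gene was called when its adjusted p in edgeR's quasi-likelihood test was below 0.05. The summed marker levels are the exception, being CPM without TMM scaling. TMM factors ran from 0.94 in a control library to 1.09 in a quisinostat library. Where 3 values are given for a gene with no drug named, they are in the order romidepsin, quisinostat, mivebresib. The 95% intervals are not adjusted for the number of genes tested, so an interval can exclude 0 for a gene that was not called. The control libraries differed from each other more than other pairs did, with a median absolute log2 difference over genes of 0.23 against 0.11 to 0.13 in the drug groups. Melanocyte markers were abundant, their summed level running from 3518 to 5121 CPM, although DCT had at most 5 counts. With mivebresib the melanocyte sum was 3518 and 3686 CPM, and in control it was 4032 and 5121 CPM. This sum was mostly TYRP1, and single markers moved more: of 6 tested, 1, 3 and 4 were called lower and none higher, with medians of -0.05, -0.59 and -1.02 log2. SOX10 went from 6109 and 5527 counts in control to 4347 and 4913 with romidepsin, 3366 and 3575 with quisinostat and 1564 and 1468 with mivebresib. Summed fibroblast markers were 14.0 and 21.4 CPM in control, 38.0 and 39.1 CPM with quisinostat and 7.97 and 10.4 CPM with mivebresib, mostly PDGFRA and COL1A1, while COL3A1 had at most 4 counts. Summed endothelial markers were 0.61 and 0.93 CPM in control and highest with quisinostat, at 5.64 and 6.36 CPM. Epithelial ones were 4.87 and 4.43 CPM in control and highest with quisinostat, at 12.8 and 12.5 CPM. Of 2 endothelial and 3 epithelial genes tested, 1 and 1 were called higher with romidepsin, 2 and 3 with quisinostat, and 0 and 1 with mivebresib. With mivebresib 1 epithelial gene was called lower. Summed immune markers were 59.8 to 79.5 CPM, nearly all CD68, a lysosomal protein abundant in macrophages, which had 1699 to 2307 counts and was not called for any drug. CD3E and CDH5 had 0 counts in every library, PTPRC at most 11 and EPCAM at most 5. The part of these marker shifts in the results was not tested.

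RRM2 was downregulated by all 3 drugs and most by quisinostat. Its level was 169 and 178 CPM in the control wells, 64.7 and 62.5 CPM with romidepsin, 29.5 and 28.0 CPM with quisinostat, and 85.7 and 83.8 CPM with mivebresib. Every treated well lay below both control wells, and no 2 groups overlapped. The log2 FC was -2.59 with quisinostat (SE 0.079, adjusted p = 6.49e-07), a 6.03-fold fall from 173 ± 6.07 to 28.8 ± 1.05 CPM (SD, n = 2). It was -1.45 with romidepsin (SE 0.076, adjusted p = 3.64e-05) and -1.03 with mivebresib (SE 0.075, adjusted p = 1.83e-05). In bulk RNA, fewer cells making a transcript and less of it per cell cannot be told apart. RRM2 lies at chr2:10120698-10131419 on the plus strand. AC007240.1, annotated as protein-coding on the same strand, overlaps RRM2 by 8681 bases and has no row among the counts. How reads of that overlap were counted is not known.

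**Figure D2:**
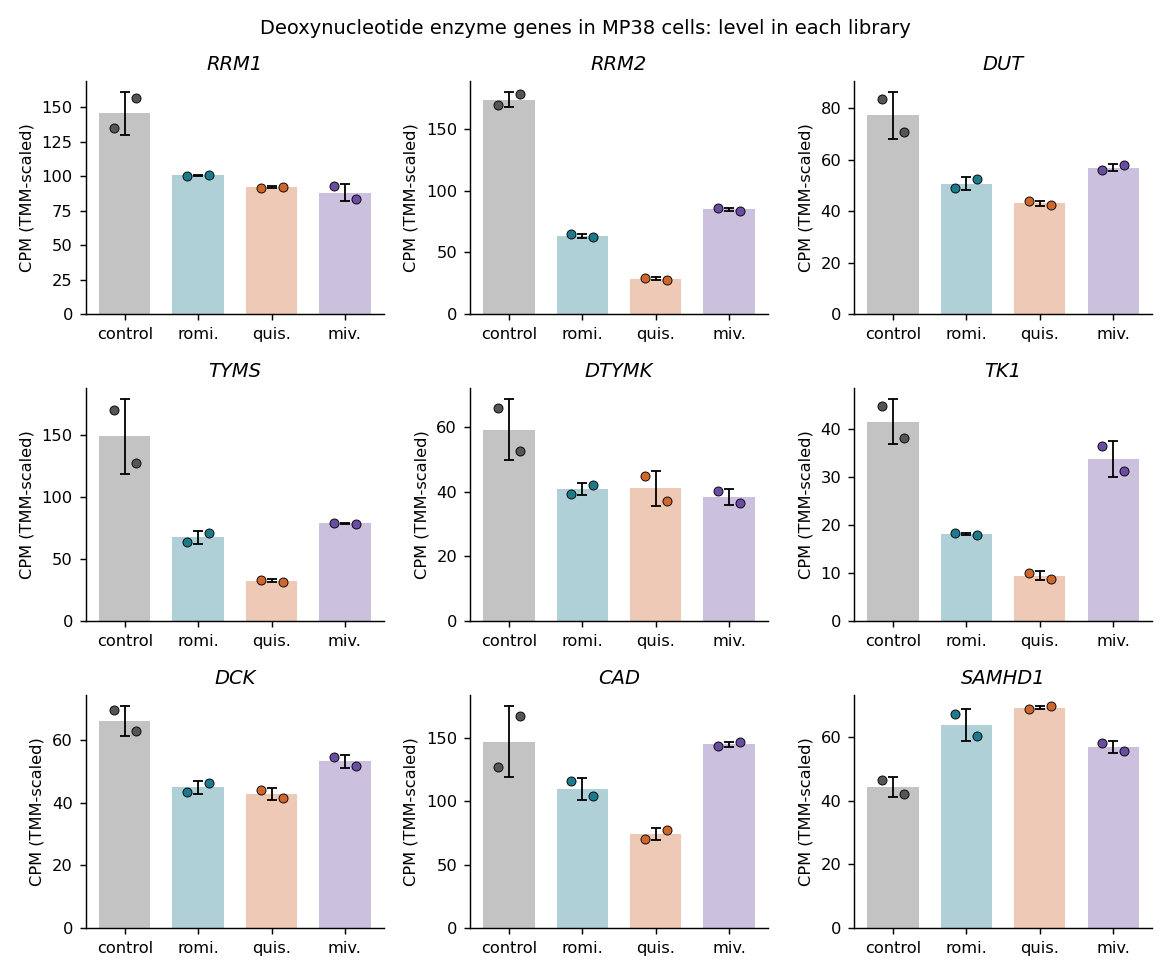
Level of the 9 genes in each library, in TMM-scaled CPM on the y axis; bars are group means, error bars SD and points the 2 wells of control, romidepsin (romi.), quisinostat (quis.) and mivebresib (miv.). RRM2, TYMS and TK1 are lowest with quisinostat (28.8, 32.5 and 9.43 CPM), and SAMHD1 is above control in every treated well.

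RRM1, the catalytic partner (chr11:4094707-4138876, plus strand), fell less. It measured 135 and 156 CPM in control, 100 and 101 CPM with romidepsin, 91.5 and 92.5 CPM with quisinostat, and 92.6 and 83.5 CPM with mivebresib. The treated wells were all lower than control and close to one another. Its log2 FC values were -0.53, -0.66 and -0.72 (adjusted p = 0.00392, 5.17e-04 and 3.99e-04). For quisinostat the 95% interval ran from -0.88 to -0.45, and that of RRM2 from -2.77 to -2.41. The ratio of RRM2 to RRM1 counts was 1.26 and 1.14 in control, 0.64 and 0.62 with romidepsin, 0.32 and 0.30 with quisinostat, and 0.92 and 1.00 with mivebresib. This ratio was below both control values in every treated well, and least so with mivebresib.

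RRM2B, the alternative small subunit, was not called lower with any drug. It measured 582 ± 16.0 CPM in control, 513 ± 1.18 CPM with romidepsin, 565 ± 3.22 CPM with quisinostat and 690 ± 0.056 CPM with mivebresib (SD, n = 2). It was called for mivebresib alone (log2 FC 0.25, adjusted p = 0.0343), with -0.18 for romidepsin (adjusted p = 0.124) and -0.04 for quisinostat (adjusted p = 0.685). Per kilobase of its longest coding transcript RRM2B stood at 118 CPM in control against 47.2 CPM for RRM2, and it was also above RRM2 with the median transcript length. The ratio of RRM2B to RRM2 counts was 3.50 and 3.21 in control, 7.92 and 8.23 with romidepsin, 19.2 and 20.1 with quisinostat, and 8.06 and 8.24 with mivebresib.

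The thymidylate enzymes fell with both HDAC inhibitors, TYMS and TK1 far more than DUT and DTYMK. TYMS (chr18:657604-673578, plus strand) measured 171 and 128 CPM in control, 63.9 and 71.2 CPM with romidepsin, 33.3 and 31.7 CPM with quisinostat, and 79.4 and 78.7 CPM with mivebresib. Its control wells were the most uneven of the 9 genes, yet every treated well was lower than both. With quisinostat the log2 FC was -2.20 (SE 0.136, adjusted p = 6.24e-06), a 4.59-fold fall. It was -1.14 with romidepsin (SE 0.131, adjusted p = 5.33e-04) and -0.92 with mivebresib (SE 0.130, adjusted p = 6.26e-04). ENOSF1, a neighbour on the opposite strand that overlaps TYMS by 3255 bases, also fell, by less (log2 FC -0.41 with romidepsin and -0.45 with quisinostat). With mivebresib ENOSF1 was at -0.22 (adjusted p = 0.0907). Whether counting used strand is not given in the sources used here, so reads of the overlap may be shared.

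TK1, which salvages thymidine (chr17:78174075-78187233, minus strand), measured 44.8 and 38.1 CPM in control, 18.3 and 17.9 CPM with romidepsin, 10.1 and 8.76 CPM with quisinostat, and 36.4 and 31.1 CPM with mivebresib. The HDAC inhibitor wells were far below control, whereas the mivebresib wells were just below it. TK1 changed by -2.14 log2 with quisinostat (SE 0.126, adjusted p = 4.99e-06), a 4.40-fold fall, and -1.20 with romidepsin (SE 0.120, adjusted p = 2.71e-04). With mivebresib it was -0.30 and not called (95% interval -0.56 to -0.03, adjusted p = 0.0651), and without control replicate 2 it was called (-0.41, adjusted p = 0.0103). TK2, the mitochondrial thymidine kinase, was not called for any drug (log2 FC -0.06, -0.21 and 0.21, adjusted p = 0.720, 0.182 and 0.197). The ratio of TK2 to TK1 counts was 1.00 and 0.91 in control, 1.97 and 2.23 with romidepsin, 3.30 and 4.05 with quisinostat, and 1.26 and 1.48 with mivebresib.

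DUT, the dUTPase (chr15:48331011-48343373, plus strand), measured 83.6 and 70.9 CPM in control, 49.1 and 52.5 CPM with romidepsin, 43.9 and 42.5 CPM with quisinostat, and 55.9 and 57.9 CPM with mivebresib. No treated well reached a control well. DUT had log2 FC values of -0.61, -0.84 and -0.44 (adjusted p = 0.00228, 1.49e-04 and 0.00531). DTYMK, the thymidylate kinase (chr2:241675742-241686991, minus strand), measured 65.9 and 52.4 CPM in control, 39.4 and 42.2 CPM with romidepsin, 44.9 and 37.2 CPM with quisinostat, and 40.1 and 36.6 CPM with mivebresib. Its treated groups were lower than control and overlapped each other. DTYMK had log2 FC values of -0.54, -0.53 and -0.63 (adjusted p = 0.0160, 0.00928 and 0.00489). The call for romidepsin was lost without romidepsin replicate 1 (-0.49, adjusted p = 0.114) or 2 (-0.59, adjusted p = 0.0616), and that for quisinostat without quisinostat replicate 2 (-0.41, adjusted p = 0.0736).

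DCK, the deoxycytidine kinase (chr4:70992538-71030914, plus strand), fell by a modest amount with every drug. It measured 69.5 and 62.8 CPM in control, 43.4 and 46.3 CPM with romidepsin, 44.2 and 41.4 CPM with quisinostat, and 54.6 and 51.8 CPM with mivebresib. The HDAC inhibitor wells were lowest and the mivebresib wells lay between them and control. These gave log2 FC values of -0.56, -0.63 and -0.31 (adjusted p = 0.00213, 4.20e-04 and 0.0165). Without mivebresib replicate 2 the mivebresib value was -0.28 and not called (adjusted p = 0.106). MOB1B, a kinase activator gene that overlaps DCK on the same strand by 29912 bases, was called higher with romidepsin (log2 FC 0.24, adjusted p = 0.0396) and not called with quisinostat (-0.07, adjusted p = 0.426) or mivebresib (0.14, adjusted p = 0.149).

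CAD, at the head of pyrimidine synthesis (chr2:27217390-27243943, plus strand), was lowest with quisinostat and near control with mivebresib. It measured 127 and 167 CPM in control, 116 and 104 CPM with romidepsin, 70.5 and 77.2 CPM with quisinostat, and 144 and 147 CPM with mivebresib. The mivebresib wells lay between the control wells, and the quisinostat wells were well below them. CAD changed by -0.99 log2 with quisinostat (SE 0.131, adjusted p = 3.22e-04) and -0.02 with mivebresib (95% interval -0.32 to 0.27, adjusted p = 0.912). With romidepsin it was -0.42 (adjusted p = 0.0388), a call lost on leaving out any library but control replicate 1. Across the 7 such fits it ran from -0.21 without control replicate 2 to -0.50 without romidepsin replicate 1, with adjusted p from 0.0679 to 0.195.

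SAMHD1, which hydrolyses deoxynucleoside triphosphates (chr20:36889773-36951901, minus strand), was upregulated. It measured 46.7 and 42.1 CPM in control, 67.4 and 60.4 CPM with romidepsin, 69.0 and 69.8 CPM with quisinostat, and 58.4 and 55.7 CPM with mivebresib. All 6 treated wells were higher than both control wells. SAMHD1 had log2 FC values of 0.53, 0.65 and 0.36 (adjusted p = 0.00310, 4.11e-04 and 0.0100). Without mivebresib replicate 1 the mivebresib value was 0.32 and not called (adjusted p = 0.0667). TLDC2, on the opposite strand over SAMHD1, had at most 8 counts in any library.

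The 9 genes were chosen with earlier results of these data known, so shares of all genes are given for scale and not as a test. Read together, 8 of the 9 genes were called lower and 1 higher with romidepsin, where 15.8% of all genes tested were called lower and 15.2% higher. With quisinostat 8 were lower and 1 higher, against 25.1% and 28%. With mivebresib 6 were lower, 1 was higher and TK1 and CAD were not called, against 24.1% and 22.2%. On the authors' quantile-normalized table limma called only 1, 3 and 2 of the 9, all lower. Both treated wells were beyond both control wells, in the direction of the fold change, for all 9 genes with each HDAC inhibitor and for all but CAD with mivebresib. Such a downward separation was seen in 32.5%, 35.8% and 34.3% of all genes, and an upward one in 31.2%, 38.4% and 35.4%. At a log2 FC beyond 1.5 as well as the adjusted p, only RRM2, TYMS and TK1 with quisinostat were called. Of all genes, 0.312%, 1.03% and 4.36% were lower by both criteria. The median log2 FC of the 9 genes was -0.56, -0.84 and -0.44, and that of all genes was -0.01, -0.00 and 0.01. These 3 comparisons share the same control wells.

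**Figure D3:**
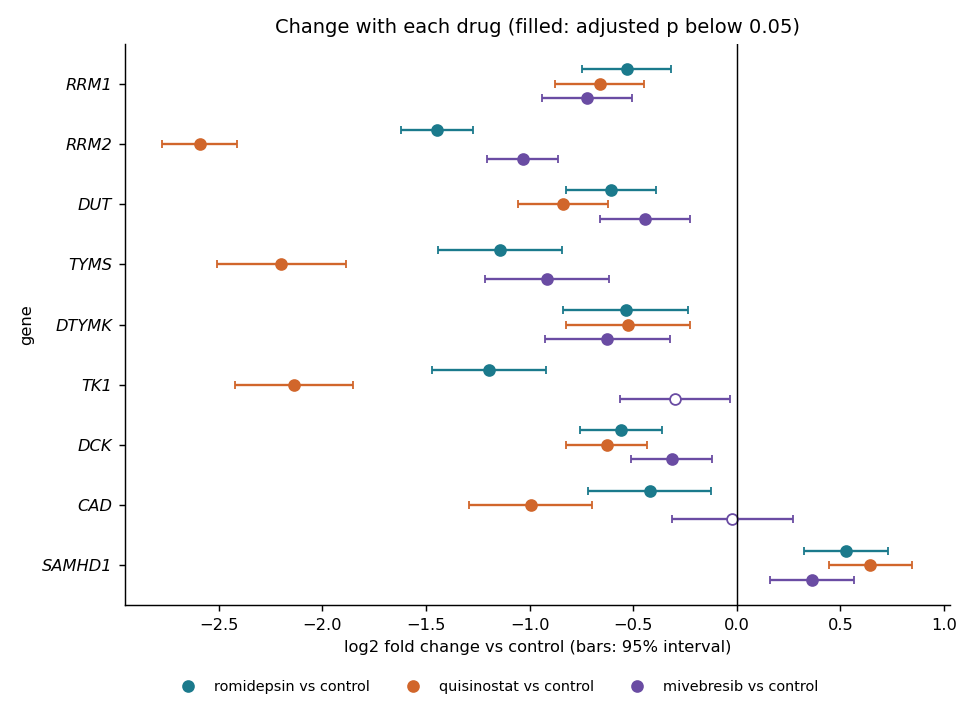
Log2 fold change of each gene against control for romidepsin, quisinostat and mivebresib. Points are edgeR estimates, bars unadjusted 95% intervals, and filled points have an adjusted p below 0.05. RRM2, TYMS and TK1 are beyond -2 with quisinostat, TK1 and CAD are open points with mivebresib, and SAMHD1 lies above 0 for all 3 drugs.

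The drugs were then compared directly. Romidepsin and quisinostat were both given at 40 nM, which matches the concentration only. The paper found romidepsin the more potent of these drugs on MP38 viability. At 40 nM, quisinostat left 4 of the 9 genes lower than romidepsin did, against 14.6% of all genes called lower. These were RRM2 (log2 difference -1.14, 95% interval -1.32 to -0.97, adjusted p = 5.21e-05), TYMS (-1.06, adjusted p = 7.05e-04), TK1 (-0.94, adjusted p = 9.56e-04) and CAD (-0.57, adjusted p = 0.00991). For RRM2, TYMS and TK1 the quisinostat wells were all under the romidepsin wells by a wide gap. The CAD call was lost without quisinostat replicate 1 (-0.53, adjusted p = 0.0763) or romidepsin replicate 1 (-0.50, adjusted p = 0.0752). The intervals of the genes not called were -0.35 to 0.09 for RRM1, -0.45 to -0.02 for DUT, -0.29 to 0.31 for DTYMK, -0.27 to 0.13 for DCK and -0.08 to 0.32 for SAMHD1. DUT (-0.23, adjusted p = 0.0904) was called without control replicate 1 (adjusted p = 0.0106) or control replicate 2 (adjusted p = 0.0180).

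Mivebresib was given at 1200 nM, so its comparison with the HDAC inhibitors is between unlike doses. Against romidepsin, 4 of 9 genes were higher with mivebresib, against 23.7% of all genes called higher: TK1 (0.90, adjusted p = 4.07e-04), RRM2 (0.41, adjusted p = 0.00204), CAD (0.40, adjusted p = 0.0314) and DCK (0.25, adjusted p = 0.0438). The CAD and DCK calls were lost without either romidepsin, either quisinostat or either mivebresib library, with CAD from 0.32 to 0.48 and DCK from 0.20 to 0.29. TYMS (0.23, adjusted p = 0.183) and RRM1 (-0.19, adjusted p = 0.126) were not called, and both were called without either control library (TYMS 0.20 and 0.23, RRM1 -0.22 and -0.19, without replicate 1 and 2). Against quisinostat, 6 of 9 genes were higher and 1 lower, where 26.2% of all genes were called higher and 31.5% lower. TK1 (1.84), RRM2 (1.56), TYMS (1.28), CAD (0.97), DUT (0.40) and DCK (0.31) were higher with mivebresib and SAMHD1 (-0.28) lower, with adjusted p from 1.89e-06 to 0.0224. The SAMHD1 call was lost without any 1 of the mivebresib or quisinostat libraries (-0.31 to -0.24), and the DCK call without mivebresib replicate 1 or quisinostat replicate 2 (both 0.28). RRM1 (95% interval -0.28 to 0.15) and DTYMK (-0.40 to 0.20) were not called.

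**Figure D4:**
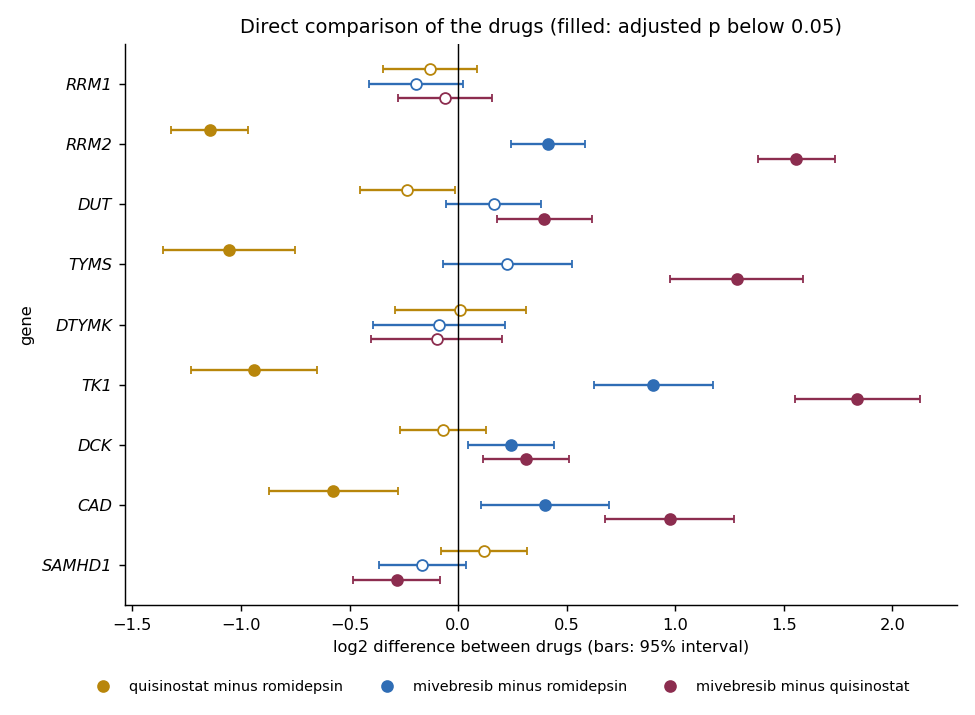
Log2 difference of each gene between pairs of drugs, with unadjusted 95% intervals. Filled points have an adjusted p below 0.05. RRM2, TYMS and TK1 are left of 0 for quisinostat minus romidepsin and right of 1 for mivebresib minus quisinostat, while the RRM1 and DTYMK intervals cross 0 in each pair.

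The order of levels within the group of enzymes changed most with quisinostat. Per kilobase of the longest coding transcript, control levels were 89.7 ± 18.2 CPM for TYMS, 48.0 ± 7.71 for DTYMK, 47.3 ± 4.98 for RRM1, 47.2 ± 1.65 for RRM2, 36.0 ± 4.21 for DUT, 24.7 ± 2.81 for TK1, 24.4 ± 1.77 for DCK, 20.3 ± 3.90 for CAD and 8.38 ± 0.61 for SAMHD1 (SD, n = 2). DTYMK, RRM1 and RRM2 were within their spread of one another, and so were TK1, DCK and CAD. With quisinostat DTYMK led at 33.3 ± 4.42 and RRM1 followed at 29.9 ± 0.23, within the spread of DTYMK. DUT (20.1 ± 0.45) and TYMS (19.5 ± 0.70) were also within their spread, followed by DCK (15.8 ± 0.73), SAMHD1 (13.1 ± 0.11) and CAD (10.2 ± 0.65). RRM2 (7.83 ± 0.29) and TK1 (5.61 ± 0.56) stood last. RRM2 thus went from place 4 to place 8, and SAMHD1 from place 9 to place 6. With romidepsin and mivebresib TYMS, DTYMK and RRM1 stayed in places 1 to 3 and RRM2 took place 5, while SAMHD1 was at place 8 with romidepsin and 9 with mivebresib. The control order depended on the transcript assumed: with the median length DUT stood at 69.9 and took place 2. The orders in the drug groups were ranked with the longest transcript only, so their places may depend on it as well.

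Genes with the profile nearest to each enzyme over the 8 libraries were sought among 9680 expressed genes, by the root mean square (RMS) difference of centred log2 CPM. The libraries are 4 groups of wells, so closeness mostly reflects the same group means, and it is given as a description. For RRM2 the nearest were MCM10, a replication initiation factor (RMS 0.10, Pearson's r 0.99), ZNF367, a zinc finger factor (0.16), MCM5, a subunit of the replicative helicase (0.16), MYBL2, a cell cycle transcription factor (0.16), and UHRF1, which recruits the maintenance methyltransferase to new DNA (0.17). MCM10 changed by -1.41, -2.57 and -0.83 log2. Nearest to TYMS were CDCA5 and MCM2, and nearest to TK1 were FAM111B and MCM7. CAD was nearest to ZC3H11A and DNMT1, DCK to VEZF1 and PPP4R3A, and DUT to KLHDC3 and C11orf84. RRM1 was nearest to INPPL1 and RACGAP1, DTYMK to ID3 and LSM1, and SAMHD1 to RIPK2 and CSRNP1. Among the enzymes themselves the closest profiles were DUT and DCK (RMS 0.089), then DTYMK and RRM1 (0.167), DTYMK and DCK (0.168), DTYMK and DUT (0.19), RRM1 and DCK (0.20) and RRM2 and TYMS (0.21). RRM2 and SAMHD1 were farthest apart (1.16). This measure cannot be large between genes that change little, so the ranking is not one of likeness in shape. The RMS of the centred profile itself was 0.25 for DCK, 0.27 for DTYMK, 0.29 for RRM1 and 0.31 for DUT. It was 0.93 for RRM2 and 0.78 for TYMS.

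The rest of nucleotide metabolism moved less evenly than the 9 enzymes. Of 71 other genes tested, 20 were lower and 11 higher for romidepsin, 35 lower and 6 higher for quisinostat, and 22 lower and 15 higher for mivebresib, with medians of -0.24, -0.28 and -0.10 log2. These are 28.2% lower and 15.5% higher, 49.3% and 8.45%, and 31.0% and 21.1%, where of all genes 15.8% were lower and 15.2% higher, 25.1% and 28%, and 24.1% and 22.2%. The mivebresib shares are thus near those of all genes, and the counts of the lists below are small and are given as a description. In these lists 'most' ranks the called genes for 1 drug, not the drugs for 1 gene. The romidepsin counts moved with single libraries: 8 lower and 2 higher without romidepsin replicate 1, 10 and 4 without romidepsin replicate 2, and 34 lower without control replicate 2. Among 11 folate cycle genes, which feed TYMS, 6, 8 and 5 fell, and 1 rose with mivebresib. MTHFD1L, a mitochondrial formate-producing enzyme, fell most with mivebresib (log2 FC -0.84), SLC19A1, the reduced folate carrier, with quisinostat (-1.17), and FPGS, which adds glutamates to folates, with romidepsin (-0.51).

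Past CAD in pyrimidine synthesis, 2, 3 and 2 of 5 genes fell. CTPS1, a CTP synthase, followed CAD, at -0.52 with romidepsin and -1.17 with quisinostat, and at -0.00 with mivebresib (adjusted p = 0.980). Its paralogue CTPS2 was called for mivebresib (-1.33) and not for romidepsin (-0.26, adjusted p = 0.0887) or quisinostat (-0.19, adjusted p = 0.151). UMPS, which makes UMP, was called for quisinostat (-0.45), and DHODH, the mitochondrial step, for no drug (-0.32, -0.20 and 0.10). Of 12 purine synthesis genes, 2, 8 and 3 fell and 1, 1 and 3 rose. The shares lower (16.7%, 66.7% and 25%) were near those of all genes with romidepsin and mivebresib. ADSS fell most with romidepsin and quisinostat (-0.44 and -0.68) and PFAS with mivebresib (-0.77), while PPAT rose with romidepsin (0.39), PRPS2 with quisinostat (0.39) and IMPDH2, which controls entry to GTP synthesis, with mivebresib (0.58).

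Among 7 reductase partners, which include RRM2B and the thioredoxin and glutaredoxin systems that reduce the enzyme, 1, 2 and 1 fell and 2, 1 and 3 rose. The shares lower were 14.3%, 28.6% and 14.3%, and those higher 28.6%, 14.3% and 42.9%. Those lower with romidepsin and quisinostat were near the shares of all genes (15.8% and 25.1%). TXNRD1, the cytosolic thioredoxin reductase, rose by 1.68 log2 with mivebresib, from 859 to 2751 CPM, and mitochondrial TXNRD2 fell with each drug (-0.54, -1.01 and -1.26). GLRX, a glutaredoxin, rose with each drug (0.69, 1.52 and 0.80). Of 12 nucleotide kinases 3, 6 and 7 fell and 2, 1 and 1 rose. NME1, a nucleoside diphosphate kinase, fell with mivebresib (-1.02) and quisinostat (-0.43). NME6 had the largest called fall of this list with romidepsin (-0.79) and with quisinostat (-0.85). With mivebresib NME6 had 301 and 352 counts, against 653 and 588 in control. NME7, a family member known from centrosomes and cilia, rose (1.63, 2.49 and 0.36). CMPK2, a mitochondrial kinase, fell with mivebresib (-1.60, adjusted p = 0.0294), but its control counts of 250 and 76 were uneven.

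Of 10 salvage genes 3, 3 and 2 fell and 1, 1 and 3 rose, and the shares lower with quisinostat and mivebresib were near those of all genes. DCTD, which deaminates dCMP to dUMP, fell with every drug (-0.50, -0.53 and -0.63). Among the salvage genes APRT fell most with romidepsin (-0.50) and UCK2 with quisinostat (-0.56). UCK2 did not fall with the other drugs: it had 3765 and 3386 counts in control, 4119 and 4096 with romidepsin, and 4390 and 4241 with mivebresib. The nucleoside transporter SLC29A1 rose with romidepsin (0.55), and SLC29A2 with quisinostat (0.67) and mivebresib (0.71). DGUOK, the mitochondrial deoxyguanosine kinase, was not called (-0.15, -0.19 and -0.10). HPRT1, a purine salvage enzyme that cells generally express, is listed at 0 counts in every library, and CDA had at most 3 counts. Of 14 breakdown and pool-cleaning genes 3, 5 and 2 fell (21.4%, 35.7% and 14.3%) and 5, 2 and 4 rose (35.7%, 14.3% and 28.6%), near the all-gene shares for those lower with romidepsin and those higher with mivebresib. NT5C, a nucleotidase, fell most with quisinostat (-1.04) and ITPA, which clears deaminated purine nucleotides, with mivebresib (-0.76). NUDT1, which clears oxidised nucleotides, fell with romidepsin (-0.52) and quisinostat (-0.70), and DCTPP1 was not called (0.02, -0.17 and -0.02). DPYD, the pyrimidine-degrading enzyme, was called higher with each drug but had only 0 and 1 counts in control, 9 and 4 with romidepsin, 29 and 27 with quisinostat and 5 and 12 with mivebresib.

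**Figure D5:**
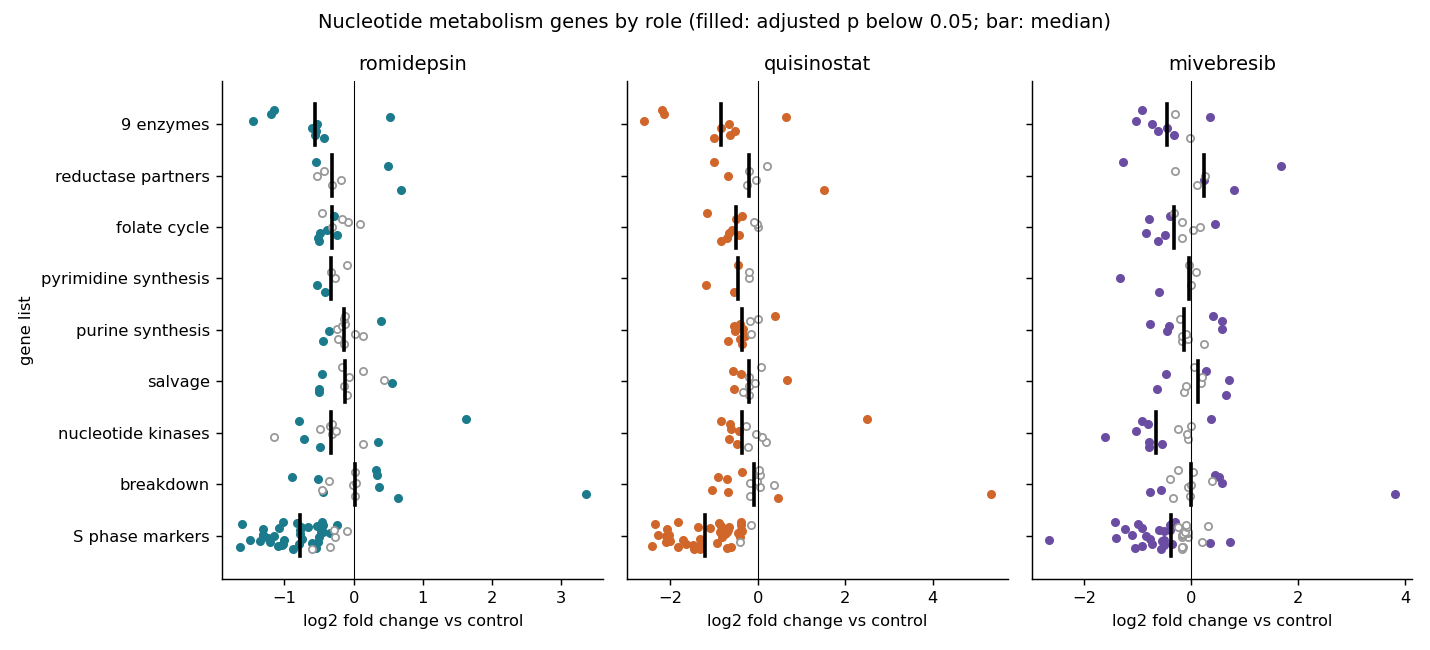
Log2 fold change against control for the 9 enzymes, other nucleotide metabolism genes by role and S phase markers; each point is a gene, filled at an adjusted p below 0.05, and black bars are medians. The 9 enzymes and the S phase markers sit mostly left of 0, and the far-right point in the breakdown list is DPYD, whose control counts were 0 and 1.

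S phase markers fell together with the enzymes. Of 40 such genes (none of the 9 among them) 35, 38 and 23 were lower, and 2 were higher with mivebresib, with medians of -0.77, -1.20 and -0.38 log2. CCNE2, cyclin E2, fell most with romidepsin (-1.64), CDC45, a part of the replicative helicase, with quisinostat (-2.42) and E2F8, a repressor E2F, with mivebresib (-2.65), with which DSCC1, which helps load the sliding clamp, rose (0.72). PCNA, that clamp, fell with romidepsin (-0.47) and quisinostat (-0.87) and was not called with mivebresib (-0.11, adjusted p = 0.272). Of 16 G2 and M phase genes 16, 15 and 15 fell (100%, 93.8% and 93.8%), with MKI67 at -0.68, -1.53 and -0.66. Among these genes BIRC5, survivin, fell most with romidepsin (-1.04) and with quisinostat (-1.67), and AURKA, a mitotic kinase, with mivebresib (-1.68). The part of cell cycle position in the enzymes' levels was not tested.

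Of 24 regulators, mostly E2F, DREAM and NF-Y genes, 14 fell with each drug (58.3%) and 2, 4 and 4 rose (8.33%, 16.7% and 16.7%), the shares higher being below those of all genes. E2F1 fell with every drug (log2 FC -1.21, -1.88 and -0.78). Among the regulators MYBL2 fell most with quisinostat (-2.69), and E2F8 with romidepsin (-1.49) and with mivebresib (-2.65). TFDP2, an E2F partner, rose most with romidepsin (0.97) and quisinostat (1.26), and the repressor E2F7 with mivebresib (1.39). The NF-Y genes did not move together. From control to mivebresib, NFYA went from 1889 and 1920 counts to 2798 and 2902, and NFYB from 1236 and 989 to 781 and 759. NFYC went from 1247 and 1107 to 1147 and 1112.

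Genes that start beside the enzymes did not all follow them. ING5, which starts 94 bases from the DTYMK start, changed by -0.93, -0.68 and 0.18, and the last was not called (adjusted p = 0.179). AFMID, 84 bases from the TK1 start, was at -0.44 and -0.12 with romidepsin and quisinostat (adjusted p = 0.0712 and 0.548) and rose with mivebresib (0.76, adjusted p = 0.00390). Reads of near-identical copies could be split by counting, and the pseudogene rows named after DUT and RRM2 held at most 3 counts each.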

How the data were processed

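RNA of MP38 wells was sequenced in 8 libraries (4 groups of 2), grouped by the sample labels, which name hg38 as the build. Counts per gene symbol were deposited by the authors without normalization. The authors' log10 table equals log10(CPM + 1) of these counts and was only checked. The authors' quantile-normalized table was treated as a score of unknown scale, so only its calls were used. The aligner and its settings are not given in the sources used here.

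For each gene, edgeR 4.0.16 (R 4.3.3) fitted all 8 libraries in 1 model, with TMM factors, filterByExpr by group, the quasi-likelihood test, no covariate and Benjamini-Hochberg adjustment over 15085 genes. With 2 wells against 2 an exact permutation test cannot reach 0.05, so no such test was used. Alternatives were other scalings and filters, DESeq2 1.42.0, limma 3.58.1, a replicate block, 4 libraries only, a log2 FC beyond 1.5 as well as the adjusted p, and leaving out each library. Coordinates and transcript lengths came from GENCODE 29 (GRCh38).

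The 9 genes and the lists were chosen with earlier results of these data known. Named genes were the 9, their nearest profiles (5 for RRM2 and 2 for each other, at an average log2 CPM of at least 3), the largest called rise and fall per list and drug, overlapping or pseudogene rows, and genes of the pathway and cycle chosen by name. ING5 and AFMID, HPRT1 and CDA, and the marker genes were named after their values were seen. ADSS2 and MLF1IP are other names of ADSS and CENPU and were counted once. Some genes that the rule would name are not reported here.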

Additional observations from a re-analysis of the deposited data

How the results depend on the processing

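Over 54 comparisons of 1 of the 9 genes between groups and 17 alternatives on counts, 843 of 918 values kept direction and side of the threshold, 48 lost the call, 13 gained it and 14 changed sign, none of these 14 in a comparison called by the test reported. With library size alone, which moved the median of all genes to 0.06, 0.20 and 0.03 log2 with romidepsin, quisinostat and mivebresib, 22 pathway genes were lower and 11 higher with quisinostat. With only the 4 libraries compared, 9 pathway genes were lower with romidepsin. On the quantile-normalized table limma called 1, 3 and 2 of the 9 genes lower (same order of drugs) and 0, 0 and 0 higher (1, 0 and 0 at an unadjusted p under 0.05, and 1, 1 and 1 by DESeq2). It called 0, 3 and 4 pathway genes lower (6 for romidepsin unadjusted, 22 by DESeq2), 2, 3 and 2 higher, and 6, 21 and 3 S phase genes lower. It called 2, 0 and 2 of the 9 differing for quisinostat and romidepsin, mivebresib and romidepsin (1 unadjusted, 3 by DESeq2), and mivebresib and quisinostat. With a log2 FC beyond 1.5 required as well, 0, 3 and 0 of the 9 were lower and 0, 0 and 0 higher, 0, 0 and 1 pathway genes lower and 2, 3 and 2 higher, 2, 14 and 1 S phase genes lower, and 0, 0 and 2 of the 9 differed between those pairs of drugs. The cause of these changes was not tested, except that the added threshold can only remove calls.

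The sign of CAD with mivebresib changed with library size alone (0.0023), upper-quartile factors (0.026), a mean CPM of at least 5 (0.0079) and without control replicate 2 (0.19, against -0.20 without control replicate 1). DTYMK between quisinostat and romidepsin turned with RLE factors (-0.012), DESeq2 (-0.017), no filter (-0.0036), 4 libraries only (-0.030) and without control replicate 1 (-0.017), romidepsin replicate 1 (-0.043) or quisinostat replicate 1 (-0.15, and at most 0.10 on leaving out another). DCK between these drugs turned with library size alone (0.060). Between mivebresib and quisinostat, RRM1 turned without mivebresib replicate 2 (0.017, range from -0.14) and DTYMK without quisinostat replicate 1 (0.035, range from -0.22).

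Leaving out each library in turn gave 6 to 8, 7 to 8 and 5 to 7 of the 9 genes lower and 1 to 1, 1 to 1 and 0 to 1 higher, 8 to 34, 26 to 43 and 19 to 31 pathway genes lower, 2 to 12, 4 to 8 and 11 to 18 higher, and 28 to 35, 34 to 38 and 20 to 24 S phase genes lower. The lowest and highest pathway counts for romidepsin (8 and 34 lower, 2 and 12 higher) came without romidepsin replicate 1 and without control replicate 2. Between drugs, 3 to 5, 2 to 6 and 5 to 7 of the 9 differed.

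Replicate numbers did not pair the samples: correlations of the replicate differences between groups ran from -0.16 to 0.16. With the replicate number as a block, 8, 8 and 7 of the 9 genes were lower, TK1 with mivebresib being the one gained (-0.30, adjusted p = 0.0256), and DCK between mivebresib and romidepsin lost its call (adjusted p = 0.0502). No other call changed among the 54. Depth was even, and 2 wells a group set the precision.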
